A study of Mus musculus with 2 samples.

Results

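A set of 46 genes that hepatocytes are known for was described in total RNA-seq of mouse adrenal glands. The genes encode plasma carrier proteins, apolipoproteins, serpins, and enzymes of the urea cycle, of aromatic amino acid breakdown and of glucose production. They were taken by name from a list of 46 symbols, and all 46 were found among 55536 annotated genes, of which 22015 are nuclear protein-coding. The list was drawn up from the difference between the 2 libraries of the study, so that difference is given here as a description, with no test. The glands came from 14-day-old male B6CASTF1/J mice, F1 hybrids of the C57BL/6J and CAST/EiJ strains, with no treatment named in the labels. Both libraries, biological replicates 2 and 1, belong to the same group, started from 300 ng of RNA and carried ERCC spike-ins. The labels name pools of males as 3x Males, and give the libraries the same pool number in one field and different numbers in another. Whether the libraries share animals is therefore unknown, and the spread between the libraries may or may not be a spread between animals. With a single group there was no contrast between conditions to test.

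Hepatocytes make most of the proteins of blood plasma. Albumin and its relatives carry fatty acids, hormones and vitamin D, transferrin and hemopexin carry iron and haem, and apolipoproteins build the particles that move cholesterol and triglycerides. Alpha-1-antitrypsin and related serpins inhibit proteases. The same cells turn ammonia into urea, break down tyrosine and tryptophan, and release glucose, and most of these genes depend on promoters bound by liver-enriched factors such as HNF1, HNF4, FOXA and C/EBP. The adrenal cortex makes steroid hormones from cholesterol, part of which it takes up from lipoproteins, and the medulla makes catecholamines. The mouse adrenal gland lies in fat beside the kidney, near the liver on the right side.

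The promoters of 4 of the genes are shown because they hold the motifs of these factors or, for Pck1, because that gene had close levels in the libraries. Each runs from 250 bases before the gene start to 50 bases after it on GRCm38.p6, the mm10 assembly, as RefSeq gives it, and is printed 5′ to 3′ on the strand of the gene. Capitals mark HNF1 letters (GTTAATNAT, or its core GTTAAT), FOXA letters (TGTTTGC), C/EBP letters (TTGCNNAA), each on either strand, and a TATA box (TATAAA) on the strand of the gene.
Alb, chr5:90460620-90460919, + strand: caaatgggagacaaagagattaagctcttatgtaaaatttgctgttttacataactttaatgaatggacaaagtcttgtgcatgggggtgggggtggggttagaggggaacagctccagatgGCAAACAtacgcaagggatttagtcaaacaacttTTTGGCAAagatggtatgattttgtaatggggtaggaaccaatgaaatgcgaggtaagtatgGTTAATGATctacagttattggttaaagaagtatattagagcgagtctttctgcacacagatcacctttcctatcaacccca
Afp, chr5:90490464-90490763, + strand: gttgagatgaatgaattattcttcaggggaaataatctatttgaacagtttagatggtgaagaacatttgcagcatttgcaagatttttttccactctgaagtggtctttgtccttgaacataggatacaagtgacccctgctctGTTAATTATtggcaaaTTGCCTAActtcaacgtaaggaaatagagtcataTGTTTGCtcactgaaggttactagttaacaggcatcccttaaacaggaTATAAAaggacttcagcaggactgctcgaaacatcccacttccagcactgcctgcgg
Serpina1b, chr12:103738140-103738439, - strand: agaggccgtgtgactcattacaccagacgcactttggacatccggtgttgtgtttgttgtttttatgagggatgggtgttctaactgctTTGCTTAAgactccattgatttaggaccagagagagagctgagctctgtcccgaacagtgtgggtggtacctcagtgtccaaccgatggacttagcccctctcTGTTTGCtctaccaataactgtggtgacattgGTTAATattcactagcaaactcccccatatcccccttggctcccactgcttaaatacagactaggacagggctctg
Pck1, chr2:173152823-173153122, + strand: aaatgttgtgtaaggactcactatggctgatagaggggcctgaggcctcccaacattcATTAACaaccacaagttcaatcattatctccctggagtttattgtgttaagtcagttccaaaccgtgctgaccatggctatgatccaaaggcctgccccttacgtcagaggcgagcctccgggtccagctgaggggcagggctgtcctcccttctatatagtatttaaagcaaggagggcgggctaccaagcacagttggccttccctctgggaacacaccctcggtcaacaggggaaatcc

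Distances here count from the RefSeq start. The GENCODE starts of Alb and Afp lie further downstream and that of Pck1 further upstream, so distances from those starts would differ. In the Alb promoter the HNF1 letters began 32 bases before the start, and the C/EBP and FOXA letters, both on the other strand, lay 94 and 128 bases before it. In the promoter of Afp, the fetal relative of albumin, the HNF1 letters began 105 bases, the C/EBP letters 89 bases, the FOXA letters 55 bases and the TATAAA letters 7 bases before the start. Serpina1b held the HNF1 core 26 bases before its start, FOXA letters 58 bases and C/EBP letters 161 bases before it, and Pck1 held only the core, 192 bases before its start on the other strand. Of the 46 genes, 36 had promoters in the table, and GTTAATNAT stood in those of 4, Alb, Afp, Gc and G6pc, which is 11.1% of the 36 against 0.940% of the 27025 genes in the table and 0.801% of its 32851 single promoters. The core GTTAAT, which lies within the longer motif, stood in 12 of the 36 genes and in 8.24% of all genes. FOXA letters stood in 14 genes (38.9%) against 5.76% of all genes, C/EBP letters in 12 (33.3%) against 12.2%, and TATAAA in 9 (25%) against 9.77%. FOXA and C/EBP letters can overlap. Serpina1a to Serpina1d, gene copies with near-identical coding sequences, were all among the FOXA and the core genes. Of these copies, Serpina1a, Serpina1b and Serpina1d were among the C/EBP genes. Such copies may not be separate cases, so the shares of the 36 genes may be raised by them. The HNF4 letters CAAAGTCCA were in the promoters of none of the 36 and of 0.555% of all genes. A match describes letters in a window and is not a measured binding site.

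Nearly all of the genes were far higher in the replicate 2 library. Of 46 genes, 44 averaged at least 1 TPM (a level per transcript, corrected for gene length and library depth). Of these, 42 were over 2-fold higher in replicate 2, none was over 2-fold higher in replicate 1, and 2 lay within 2-fold. Over all 12535 nuclear protein-coding genes with that mean, 3.33% were over 2-fold higher in replicate 2 and 2.34% in replicate 1. Because the genes were chosen from this contrast, nothing is read from the gap between these shares. Folds and log2 ratios are those of TPM + 0.1, replicate 2 over replicate 1. The median log2 ratio of the 44 genes was 4.04, which is 16.5-fold, with quartiles of 3.63 and 4.30, and the median of all nuclear protein-coding genes was -0.07. At over 8-fold there were 36 of the 44, where all nuclear protein-coding genes gave 1.79%. In tissue RNA, fewer cells of a type and less RNA per cell cannot be told apart, so these ratios do not say which of them differed.

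**Figure D1:**
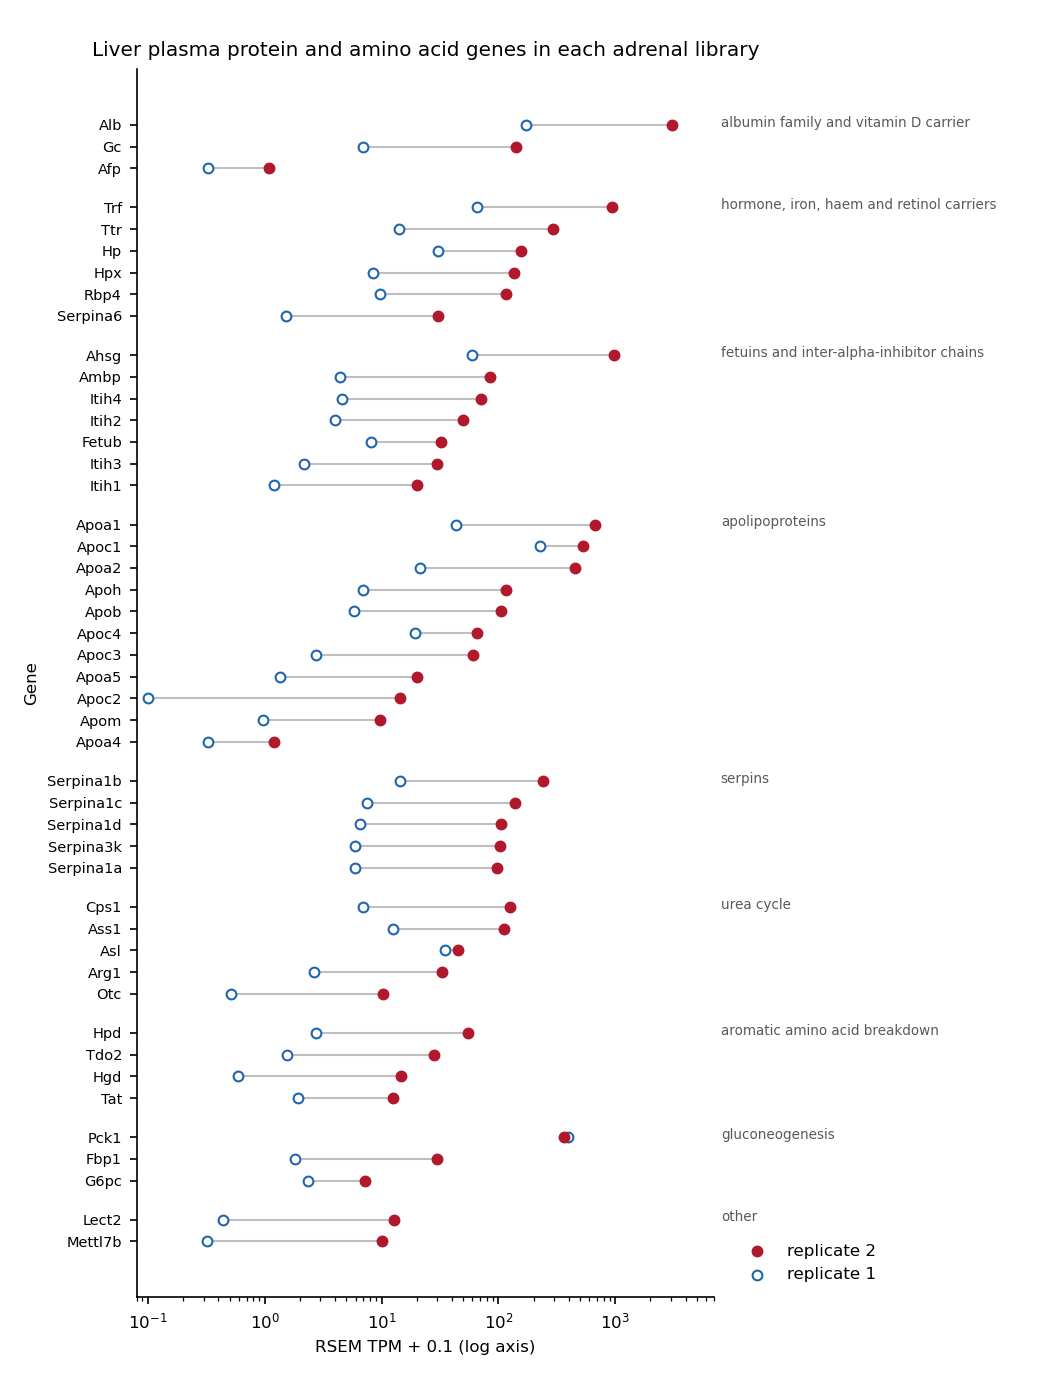
RSEM TPM + 0.1 (log axis) of the 46 genes, grouped by role, with replicate 2 as filled points and replicate 1 as open points joined by a line. Pck1 and Asl are the genes whose points nearly meet, at 365.8 and 45.3 TPM in replicate 2 against 395.6 and 34.9 TPM in replicate 1, and Apoc2 stands at 0 TPM in replicate 1.

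As a sum, the 46 genes made up 3.50% of all nuclear protein-coding TPM in replicate 2 and 0.446% in replicate 1 (mean 1.97% ± 2.16, SD, n = 2). In expected counts, which are reads divided among the genes they could come from, their share was 2.91% in replicate 2 (exact 95% limits by the binomial, 2.90 and 2.91) against 0.383% in replicate 1 (limits 0.380 and 0.386). The limits take in counting error alone. Replicate 2 held 36260745 expected counts in all and replicate 1 held 32963248, so depth differed far less than the gene set did. At least 1 TPM was found for 45 of the 46 genes in replicate 2 and for 38 in replicate 1, and 38 had it in both. Of the 8 genes under 1 TPM in replicate 1, Afp, Apoa4, Apoc2, Apom, Otc, Hgd, Lect2 and Mettl7b, only Afp was also under 1 TPM in replicate 2. The set had 20 genes above 100 TPM in replicate 2 against 3 in replicate 1, which were Alb, Apoc1 and Pck1.

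Alb, serum albumin, stood at 3072 TPM in replicate 2 compared with 172.5 TPM in replicate 1, from 211672 and 10971 expected counts. It was the most abundant nuclear protein-coding gene of replicate 2 and ranked 224 in replicate 1. The ratio was 17.8-fold. Gc, which carries vitamin D in plasma, was at 140.1 TPM in replicate 2 against 6.88 TPM in replicate 1, a 20.1-fold ratio. Afp, alpha-fetoprotein, is made by fetal liver and yolk sac and falls after birth. It had 0.98 TPM (68 expected counts) in replicate 2 and 0.23 TPM (15 expected counts) in replicate 1, below the minimum for a count. Alb and Afp are neighbours in the same direction on chromosome 5, 14.1 kb apart, with Alb from 90460897 to 90476602 on mm10 by GENCODE. Afp was thus low in both libraries beside an abundant Alb.

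Among the carriers of hormones, iron, haem and retinol, all 6 were over 2-fold higher in replicate 2, with a median log2 ratio of 3.93. Trf, transferrin, which carries iron, was at 934.1 TPM in replicate 2 versus 65.8 TPM in replicate 1 (14.2-fold). By RSEM, 35.6% of the Trf TPM in replicate 2 and 39.6% in replicate 1 lay on Trf-209, a retained-intron transcript of 433 bases. Ttr, transthyretin, which carries thyroid hormone and the retinol carrier, was at 292.4 TPM in replicate 2 against 13.9 TPM in replicate 1 (20.9-fold). Rbp4, that retinol carrier, was 11.99-fold higher in replicate 2, at 116.5 TPM against 9.62 TPM in replicate 1. Hpx, hemopexin, binds free haem, and Hp, haptoglobin, binds free haemoglobin. Hpx had 137.0 TPM in replicate 2 against 8.30 TPM in replicate 1 (16.3-fold), whereas Hp had 155.9 TPM in replicate 2 compared with 30.5 TPM in replicate 1 (5.10-fold). The ratio of Hp was the lowest of the 6. In mice Hp is made in fat as well as in liver. Which tissue gave the RNA behind this or any other ratio was not tested. Serpina6 encodes corticosteroid-binding globulin, the plasma carrier of the steroid that the adrenal cortex secretes. It stood at 30.4 TPM in replicate 2 against 1.43 TPM in replicate 1 (19.9-fold).

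The fetuins and the inter-alpha-inhibitor proteins numbered 7, all over 2-fold higher in replicate 2, with a median log2 ratio of 3.93. Ahsg, fetuin-A, which keeps calcium phosphate in solution, was at 970.4 TPM in replicate 2 versus 59.4 TPM in replicate 1 (16.3-fold). Fetub, fetuin-B, an inhibitor of the egg-coat protease ovastacin, was at 32.3 TPM in replicate 2 against 8.03 TPM in replicate 1 (3.98-fold). These genes are neighbours on chromosome 16, separated by 18.9 kb, and their ratios were unlike. Ambp, whose product is cut into alpha-1-microglobulin and bikunin, was 19.6-fold higher in replicate 2, at 85.4 TPM against 4.27 TPM in replicate 1. Itih1, Itih2 and Itih3 encode the heavy chains that are joined to bikunin and to hyaluronan, and Itih4 encodes a related plasma protein. The levels of these 4 ran from 19.9 TPM (Itih1) to 70.5 TPM (Itih4) in replicate 2 and from 1.10 TPM (Itih1) to 4.53 TPM (Itih4) in replicate 1. Their ratios were 16.6-fold for Itih1, 12.5-fold for Itih2, 13.8-fold for Itih3 and 15.2-fold for Itih4. Itih1, Itih3 and Itih4 lie within 56.8 kb on chromosome 14, and their ratios were close to each other.

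The 11 apolipoproteins varied in ratio. Apoa1 and Apoa2, the main proteins of high-density lipoprotein, stood at 676.0 and 454.3 TPM in replicate 2 against 43.4 and 21.4 TPM in replicate 1, ratios of 15.6-fold and 21.2-fold. Apob, the backbone of low-density and very low-density lipoprotein, was at 106.0 TPM in replicate 2 compared with 5.71 TPM in replicate 1 (18.3-fold). Apoc3, an inhibitor of lipoprotein lipase, was 21.9-fold higher in replicate 2, at 59.95 TPM against 2.64 TPM in replicate 1. Apoa5, which promotes the lipase, was 14.9-fold higher in replicate 2 (20.2 TPM, against 1.26 TPM in replicate 1). The inhibitor and the promoter of the lipase thus had ratios of the same order. Apoh, beta-2-glycoprotein I, which binds anionic phospholipid, was 16.7-fold higher (115.7 TPM in replicate 2, against 6.83 TPM in replicate 1). Apom, the carrier of sphingosine 1-phosphate, was 10.01-fold higher (9.61 TPM in replicate 2, against 0.87 TPM in replicate 1). Apoa4, which in mice is made mainly by the intestine, had 1.11 TPM in replicate 2 against 0.23 TPM in replicate 1, from 68 and 13 expected counts, below the minimum for a count. Apoa1, Apoc3, Apoa4 and Apoa5 lie within 43.3 kb on chromosome 9, and Apoa4 was the low gene of that cluster in both libraries.

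Apoc1 and Apoc4, on chromosome 7, had smaller ratios than most of the class. Apoc1, an exchangeable apolipoprotein, had 530.8 TPM in replicate 2 versus 225.1 TPM in replicate 1 (2.36-fold), and in replicate 1 it was above Alb. Apoc4 had 64.9 TPM in replicate 2 against 19.2 TPM in replicate 1 (3.36-fold). Apoe, the lipoprotein receptor ligand of the same chromosomal cluster, is not in the set, and it had 991.7 TPM in replicate 2 against 258.9 TPM in replicate 1 (3.83-fold). Macrophages are known to make Apoe and Apoc1, and steroid-producing adrenal cells to make Apoe. Apoc2, the activator of lipoprotein lipase, had 254.3 expected counts and 14.4 TPM in replicate 2 but no RSEM count in replicate 1. The ratio of TPM + 0.1 was 145.1-fold. With replicate 1 set to a floor of 3 counts, the ratio of expected counts over library totals was 77.1-fold. Neither value is a lower bound. The posterior mean of Apoc2 TPM by RSEM was 12.4 TPM in replicate 2 against 0.52 TPM in replicate 1. By kallisto, a quantification without alignment, Apoc2 was at 11.8 TPM in replicate 2 against 1.13 TPM in replicate 1, a 9.72-fold ratio. The quantifications also disagreed on the transcript: RSEM put 59.2% of the Apoc2 TPM of replicate 2 on Apoc2-202 and 40.8% on Apoc2-201, whereas kallisto put 100% on Apoc2-203 in both libraries. Apoc2 lies 0.142 kb from Apoc4, and Gm44805, annotated on the same strand, overlaps both, with 10.7 expected counts in replicate 2 and 11.1 in replicate 1. The RSEM zero of Apoc2 in replicate 1 therefore depends on the quantification.

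The 5 serpins of this class were close to each other in ratio. Serpina1a to Serpina1d are mouse copies of alpha-1-antitrypsin, the inhibitor of neutrophil elastase, and Serpina3k is a relative of antichymotrypsin that is abundant in mouse plasma. Serpina1b was the highest, at 240.6 TPM in replicate 2 versus 14.2 TPM in replicate 1 (16.8-fold). Serpina1c stood at 137.9 TPM in replicate 2 against 7.45 TPM in replicate 1 (18.3-fold), and Serpina1d at 106.0 TPM in replicate 2 against 6.42 TPM in replicate 1 (16.3-fold). Serpina1a was at 97.7 TPM in replicate 2 compared with 5.85 TPM in replicate 1 (16.4-fold). Serpina3k was at 102.2 TPM in replicate 2 against 5.87 TPM in replicate 1 (17.1-fold). These 4 copies of alpha-1-antitrypsin had ratios between 16.3-fold and 18.3-fold, whereas Serpina1e, a further copy outside the set that is named after its value was seen, was at 27.4 TPM in replicate 2 against 3.05 TPM in replicate 1 (8.73-fold). With Serpina6, the 6 serpin genes lie within 699.5 kb on chromosome 12, with ratios from 16.3-fold to 19.9-fold for these members.

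The split of reads among the Serpina1 copies is uncertain. Their coding sequences are each 1239 bases long, and pairs of them were 96.5% to 98.5% identical, so that 69 positions differ among the 4 and the longest stretch without a difference is 393 bases. Against Serpina3k the identity was 58.3% to 58.9%. A window of 60 bases, from position 857 to position 916 of the coding sequence, held 14 of the differing positions and shows what the reads could be told apart by. The sequences were read from the GENCODE transcripts, and capitals mark the positions where the 4 copies differ.
Serpina1a: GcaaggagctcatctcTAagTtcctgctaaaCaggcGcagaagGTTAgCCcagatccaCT
Serpina1b: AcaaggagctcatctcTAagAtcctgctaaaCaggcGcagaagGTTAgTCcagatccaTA
Serpina1c: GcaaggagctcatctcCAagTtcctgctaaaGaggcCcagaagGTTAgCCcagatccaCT
Serpina1d: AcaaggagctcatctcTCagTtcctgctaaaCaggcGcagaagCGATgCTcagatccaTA
By kallisto Serpina1a had 302.9 TPM in replicate 2 versus 16.7 TPM in replicate 1, level with Serpina1b at 311.4 TPM in replicate 2 against 19.4 TPM in replicate 1. Serpina1c was lower than either by kallisto, at 163.5 TPM in replicate 2 against 8.45 TPM in replicate 1, whereas by RSEM it stood above Serpina1a. The order of the copies therefore depended on the tool, and the kallisto ratios of the 4 ran from 14.6-fold (Serpina1d) to 19.1-fold (Serpina1c). The tools also differed on transcripts within a copy. Kallisto put 57.8% of Serpina1a TPM in replicate 2 and 52.3% in replicate 1 on Serpina1a-203, a transcript of 578 bases. RSEM put 0.67% in replicate 2 and 0% in replicate 1 on it. The annotated span of Serpina1b also contains Serpina1d.

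The urea cycle enzymes did not move as a block. Cps1, the mitochondrial enzyme that makes carbamoyl phosphate, had 126.6 TPM in replicate 2 against 6.90 TPM in replicate 1 (18.1-fold). Otc, the X-linked enzyme that makes citrulline from it, had 10.1 TPM in replicate 2 compared with 0.41 TPM in replicate 1 (20.1-fold). Arg1, the arginase that releases urea, had 32.8 TPM in replicate 2 against 2.52 TPM in replicate 1 (12.6-fold). These 3 enzymes are largely confined to liver and, for the steps to citrulline, intestine. Ass1 and Asl, which make arginine from citrulline, are used in many tissues. Ass1 stood at 110.7 TPM in replicate 2 versus 12.5 TPM in replicate 1 (8.81-fold). Asl stood at 45.3 TPM in replicate 2 against 34.9 TPM in replicate 1 (1.30-fold), within 2-fold. Of 10 further genes of ammonia handling, 9 were found and 7 averaged at least 1 TPM. Over 2-fold higher in replicate 2 were 2 of them, Slc25a15, the mitochondrial ornithine carrier, at 10.4 TPM in replicate 2 against 4.08 TPM in replicate 1, and Gls2, the liver glutaminase, at 8.45 TPM in replicate 2 compared with 0.77 TPM in replicate 1. The other 5 lay within 2-fold, among them Glud1, glutamate dehydrogenase (87.0 TPM in replicate 2, 57.8 TPM in replicate 1), and Glul, glutamine synthetase (256.4 TPM in replicate 2, 393.7 TPM in replicate 1).

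All 4 enzymes of aromatic amino acid breakdown were over 2-fold higher in replicate 2, with a median log2 ratio of 4.25. Tat, the aminotransferase that opens tyrosine breakdown, had 12.5 TPM in replicate 2 against 1.81 TPM in replicate 1 (6.58-fold). Hpd, the dioxygenase of the next step, had 54.8 TPM in replicate 2 versus 2.63 TPM in replicate 1 (20.1-fold). Hgd, the homogentisate dioxygenase that follows, had 14.6 TPM in replicate 2 against 0.49 TPM in replicate 1 (24.9-fold). The Hgd value of replicate 1 rested on 17 expected counts, so its ratio is loosely set. Tdo2, which opens tryptophan, was at 27.9 TPM in replicate 2 against 1.45 TPM in replicate 1 (18.1-fold). Outside the set, Gstz1, the isomerase near the end of tyrosine breakdown, was within 2-fold, at 41.4 TPM in replicate 2 compared with 22.97 TPM in replicate 1. In a list of 33 other genes of amino acid breakdown, 32 averaged at least 1 TPM, of which 23 were over 2-fold higher in replicate 2, none in replicate 1, and 9 lay within 2-fold, with a median log2 ratio of 2.94. Mat1a, which makes the methyl donor S-adenosylmethionine in liver, was at 92.1 TPM in replicate 2 against 5.79 TPM in replicate 1, and Gnmt, which consumes it, at 33.4 TPM in replicate 2 versus 1.83 TPM in replicate 1. Gpt2, the mitochondrial alanine aminotransferase, lay within 2-fold at 36.3 TPM in replicate 2 against 24.5 TPM in replicate 1.

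The genes of glucose production were unlike in ratio. Pck1, the cytosolic phosphoenolpyruvate carboxykinase, had 365.8 TPM in replicate 2 against 395.6 TPM in replicate 1, from 32376 and 32273 expected counts (0.92-fold). Pck1 is also a gene of kidney and of fat, where it serves glycerol production. Fbp1, fructose bisphosphatase, had 30.0 TPM in replicate 2 compared with 1.72 TPM in replicate 1 (16.6-fold), and G6pc, the phosphatase that releases glucose, had 7.13 TPM in replicate 2 against 2.23 TPM in replicate 1 (3.10-fold). These 3 enzymes of the pathway thus had unlike ratios. Among 13 other genes of glucose metabolism, all of which averaged at least 1 TPM, replicate 2 was over 2-fold higher for 6, and 7 lay within 2-fold. Pcx, pyruvate carboxylase, was at 95.03 TPM in replicate 2 against 93.6 TPM in replicate 1.

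The remaining genes had the largest ratios apart from Apoc2, on few counts. Lect2, a chemotactic factor secreted by hepatocytes, had 12.6 TPM in replicate 2 against 0.34 TPM in replicate 1 (28.8-fold). Mettl7b, a methyltransferase-like protein of liver lipid droplets and endoplasmic reticulum, had 10 TPM in replicate 2 compared with 0.22 TPM in replicate 1 (31.6-fold). Each had 8 expected counts in replicate 1, and by kallisto the ratios were 17.9-fold for Lect2 and 31.7-fold for Mettl7b.

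**Figure D2:**
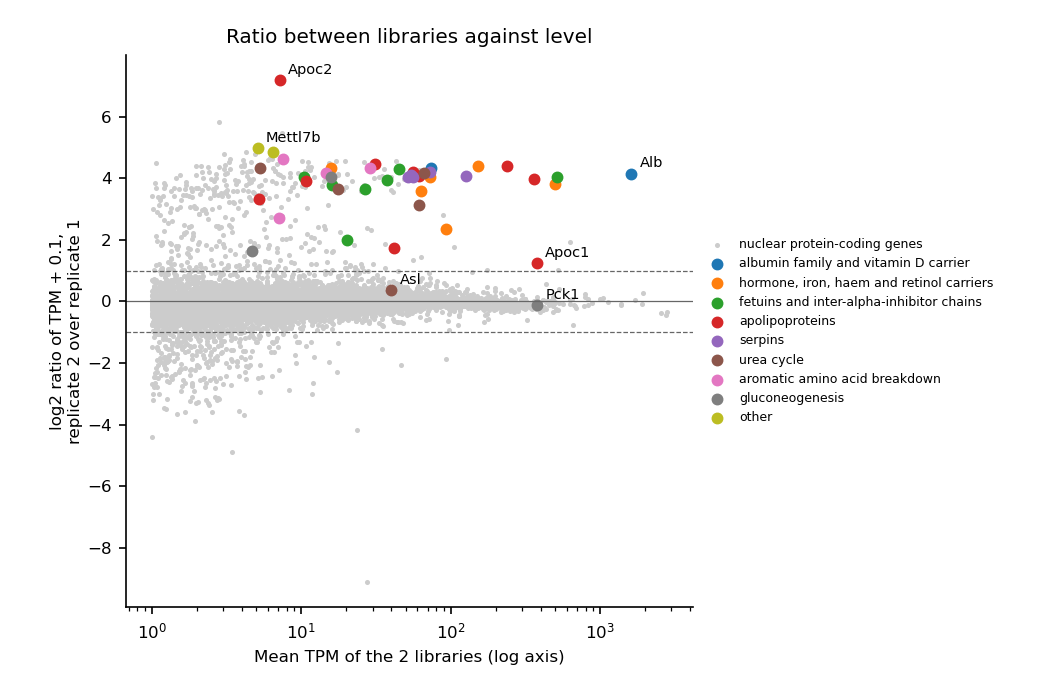
Log2 ratio of TPM + 0.1, replicate 2 over replicate 1, against mean TPM (log axis) for nuclear protein-coding genes averaging at least 1 TPM (grey) and the described genes, coloured by role. Dashed lines mark 2-fold. Of the 44 coloured points, 28, Alb itself included, lie within 0.5 of the Alb ratio of 4.15, and Asl (0.38) and Pck1 (-0.11) lie inside the dashed lines.

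Against Alb, most of the genes kept a similar proportion in both libraries. Within 0.5 on the log2 scale of the Alb ratio were 28 of the 44 genes, Alb itself included. Of all nuclear protein-coding genes with that mean, 1.79% were over 8-fold higher in replicate 2, a range that contains this band. The genes were chosen from this contrast, so nothing is read from the gap. Per 100 TPM of Alb, Ahsg stood at 31.6 TPM in replicate 2 against 34.4 TPM in replicate 1, Trf at 30.4 TPM in replicate 2 versus 38.1 TPM in replicate 1, and Cps1 at 4.12 TPM in replicate 2 against 4.00 TPM in replicate 1. Genes with a much smaller ratio than Alb stood higher relative to it in replicate 1. On that scale Apoc1 stood at 17.3 TPM in replicate 2 against 130.5 TPM in replicate 1, Hp at 5.08 TPM in replicate 2 compared with 17.7 TPM in replicate 1, and Pck1 at 11.9 TPM in replicate 2 against 229.3 TPM in replicate 1. The genes between 2-fold and 8-fold numbered 6 and were Hp, Fetub, Apoc1, Apoc4, Tat and G6pc. The make-up of the set therefore differed between the libraries. In replicate 2 Alb gave 31.6% of the summed TPM of the set, Pck1 3.76% and Apoc1 5.45%. In replicate 1 Pck1 gave 32.4%, Apoc1 18.4% and Alb 14.1%. The summed TPM was 9735 in replicate 2 and 1223 in replicate 1, and without Pck1 and Apoc1 it was 8839 in replicate 2 and 601.9 in replicate 1.

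**Figure D3:**
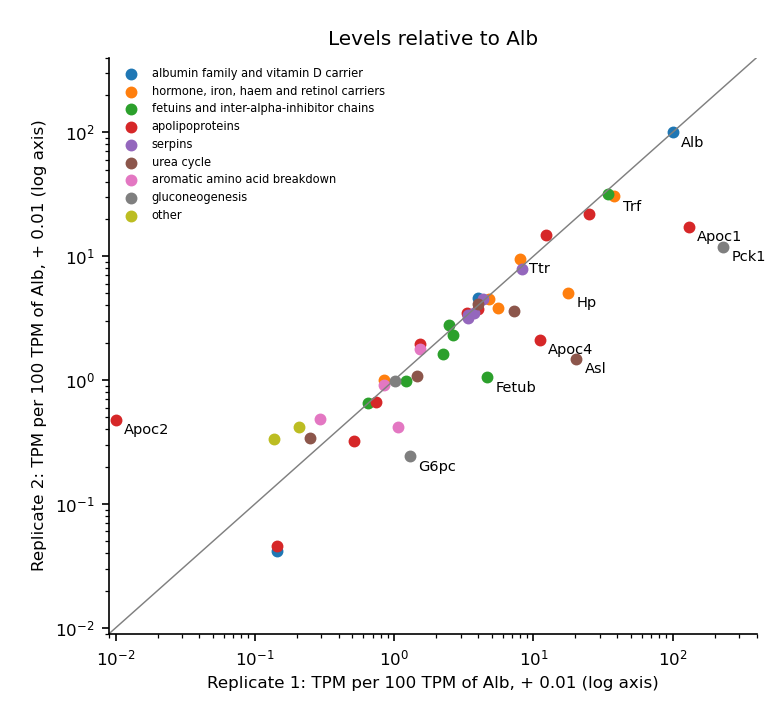
TPM per 100 TPM of Alb, + 0.01, in replicate 2 (vertical, log axis) against replicate 1 (horizontal, log axis) for the 46 genes, coloured by role. Points on the diagonal have the same proportion to Alb in both libraries, as Cps1 nearly has (4.12 in replicate 2, 4.00 in replicate 1), while Pck1, Apoc1, Hp, Asl, Apoc4, Fetub and G6pc lie below it.

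The quantifications gave like ratios for most of the genes. The log2 ratio by kallisto lay within 0.25 of the RSEM ratio for 39 of the 44 genes averaging at least 1 TPM. The largest gap apart from Apoc2 was 0.69, for Lect2. The levels themselves were higher by kallisto, with a median of 1.49 times the RSEM TPM in replicate 2 versus 1.56 times in replicate 1, against 1.51 and 1.53 times over all nuclear protein-coding genes. The deposited 95% credibility intervals of TPM, which cover the uncertainty of assigning reads and not the spread between animals, lay apart between the libraries for all 46 genes. Over nuclear protein-coding genes they lay apart for 8.9% with replicate 2 higher and for 11.6% with replicate 1 higher, so intervals this narrow also part genes of small ratio. For Asl they ran from 41.5 to 48.3 TPM in replicate 2, and from 32.04 to 38.7 TPM in replicate 1. For Pck1, the gene of the 46 that was lower in replicate 2, they ran from 354.0 to 363.9 TPM in replicate 2, and from 382.5 to 393.2 TPM in replicate 1. These intervals surround the posterior mean TPM, so the TPM itself can fall outside them.

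The leading transcript was mostly shared by the libraries. The annotation gives 37 of the 46 genes more than 1 transcript, and 32 of these had at least 1 TPM in both libraries. By RSEM the same transcript led in both libraries for 29 of the 32, and by kallisto for 30. Alb-201 held 100% of Alb TPM in both libraries, and for 22 of the 32 genes the leading transcript held over 90% in both. The leading transcript differed by RSEM for Apoa2, Apoa5 and Tdo2. For Apoa2, Apoa2-202 led in replicate 2 (41.9%) and Apoa2-201 in replicate 1 (39.8%), and kallisto put Apoa2-204 ahead in both, with 54.6% in replicate 2 and 82.5% in replicate 1. Tdo2-201 led in replicate 2 with 36.7% of Tdo2 TPM and Tdo2-204 led in replicate 1 with 51.7%, and by kallisto Tdo2-204 led in both. For Apoa5, Apoa5-206 led in replicate 2 (42.7%) and Apoa5-201 in replicate 1 (64.0%), whereas kallisto put 90.3% in replicate 2 and 76.5% in replicate 1 on Apoa5-202. The tools named the same leading transcript for only 24 of the 32 genes in replicate 2 and 25 in replicate 1. Choices among transcripts of these genes were therefore less settled than the gene totals.

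Markers of other tissues were set beside these values. The tissue label was checked with 12 genes of adrenal cortex and medulla, and all 12 lay within 2-fold, with summed levels of 7827 TPM in replicate 2 compared with 7283 TPM in replicate 1. Star, which moves cholesterol into mitochondria for steroid synthesis, was at 2099 TPM in replicate 2 against 1756 TPM in replicate 1, and Dbh, which makes noradrenaline, at 90.1 TPM in replicate 2 versus 104.5 TPM in replicate 1. Adrenal genes were therefore high in both libraries. Of 35 other plasma protein genes, 27 averaged at least 1 TPM, and 25 of these were over 2-fold higher in replicate 2, none in replicate 1, with a median log2 ratio of 3.57. Serpinc1, antithrombin, was at 132.1 TPM in replicate 2 against 6.90 TPM in replicate 1, and Pzp, a broad protease inhibitor of plasma, at 82.6 TPM in replicate 2 against 5.84 TPM in replicate 1. Mup20, a male urinary protein, had no count in either library.

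Transcription factors of hepatocytes were of both kinds. Of 14 listed, 8 averaged at least 1 TPM, of which 4 were over 2-fold higher in replicate 2 and 4 lay within 2-fold. Hnf4a, a nuclear receptor that marks hepatocytes, was at 7.57 TPM in replicate 2 compared with 0.53 TPM in replicate 1, and Onecut1 at 2.04 TPM in replicate 2 against 0.05 TPM in replicate 1. Nr1i3 and Creb3l3, named after their values were seen, were the other two that were over 2-fold higher, at 3.34 and 7.14 TPM in replicate 2 versus 0.22 and 0.66 TPM in replicate 1. Cebpa, which fat cells also use, was at 48.1 TPM in replicate 2 against 48.7 TPM in replicate 1, and Prox1 was at 9.30 TPM in replicate 2 against 7.80 TPM in replicate 1. Zone markers of the liver lobule were mixed as well. Of 5 periportal genes past the same mean, 4 were over 2-fold higher in replicate 2, such as Hsd17b13, of lipid droplets (22.02 TPM in replicate 2, 1.03 TPM in replicate 1), and Cyp2f2 was within 2-fold (236.7 TPM in replicate 2, 195.3 TPM in replicate 1). Of 5 pericentral genes, 3 were over 2-fold higher in replicate 2, among them the cytochromes Cyp2e1 (154.8 TPM in replicate 2, 22.1 TPM in replicate 1) and Cyp1a2 (11.6 TPM in replicate 2, 0.39 TPM in replicate 1), and Glul and Oat lay within 2-fold.

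Genes of the other liver cell types were low. The summed levels of 6 Kupffer cell genes were 6.81 TPM in replicate 2 compared with 7.54 TPM in replicate 1, of which 4 averaged at least 1 TPM. Clec4f, which defines Kupffer cells in mice, had 2.33 TPM in replicate 2 against 0.07 TPM in replicate 1, from 141 and 4 expected counts, and Cd5l, named after its values were seen, had 1.61 TPM in replicate 2 against 0.64 TPM in replicate 1. The other two of the 4, the macrophage genes Timd4 and Marco, were over 2-fold lower in replicate 2, at 0.39 and 0.57 TPM, than in replicate 1, at 2.95 and 3.03 TPM. Summed levels of 5 genes of liver sinusoidal endothelium were 14.3 TPM in replicate 2 versus 14.7 TPM in replicate 1, with Clec4g alone over 2-fold higher in replicate 2 (1.99 TPM, against 0.69 TPM in replicate 1). For 6 stellate cell genes the sums were 12.1 TPM in replicate 2 against 5.80 TPM in replicate 1, and for 6 bile duct genes 15.2 TPM in replicate 2 against 7.90 TPM in replicate 1. Of these genes averaging at least 1 TPM, 2 stellate genes, Reln and Colec11, and 1 bile duct gene, Spp1, were over 2-fold higher in replicate 2. Colec10 of the stellate list and Vsig4 of the Kupffer list, named after their values were seen, fell below that mean. They had 212 and 41 expected counts in replicate 2 against 5 and 3 in replicate 1.

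Lists of neighbouring and other tissues behaved in different ways. The 10 kidney genes summed to 0.75 TPM in replicate 2 compared with 1.06 TPM in replicate 1, with Umod and Slc12a1, which define the loop of Henle, at 0 in both libraries. Of 8 pancreas genes only Cela1 averaged at least 1 TPM, and Ins2, Gcg and Prss1 were at 0 in both libraries. The 10 genes of intestine and yolk sac summed to 92.3 TPM in replicate 2 against 5.19 TPM in replicate 1, of which Fabp1, a fatty acid carrier that hepatocytes also make, gave 82.6 TPM in replicate 2 versus 3.42 TPM in replicate 1. Of the list, 3 genes averaged at least 1 TPM, all over 2-fold higher in replicate 2, and Cdx2, which defines intestine, was at 0 in both. The 8 fat genes summed to 3037 TPM in replicate 2 against 3039 TPM in replicate 1, with 7 within 2-fold. Ucp1, of brown fat, was at 861.0 TPM in replicate 2 against 723.6 TPM in replicate 1. Of 6 red cell genes 5 lay within 2-fold. The 8 lymphoid genes went the other way, all over 2-fold lower in replicate 2, with sums of 11.6 TPM in replicate 2 compared with 168.6 TPM in replicate 1. Glycam1, of lymph node venules, had no count in replicate 2 and 966 expected counts (55.4 TPM) in replicate 1. The part of liver or of any other tissue in the ratios of the described genes was not tested.

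**Figure D4:**
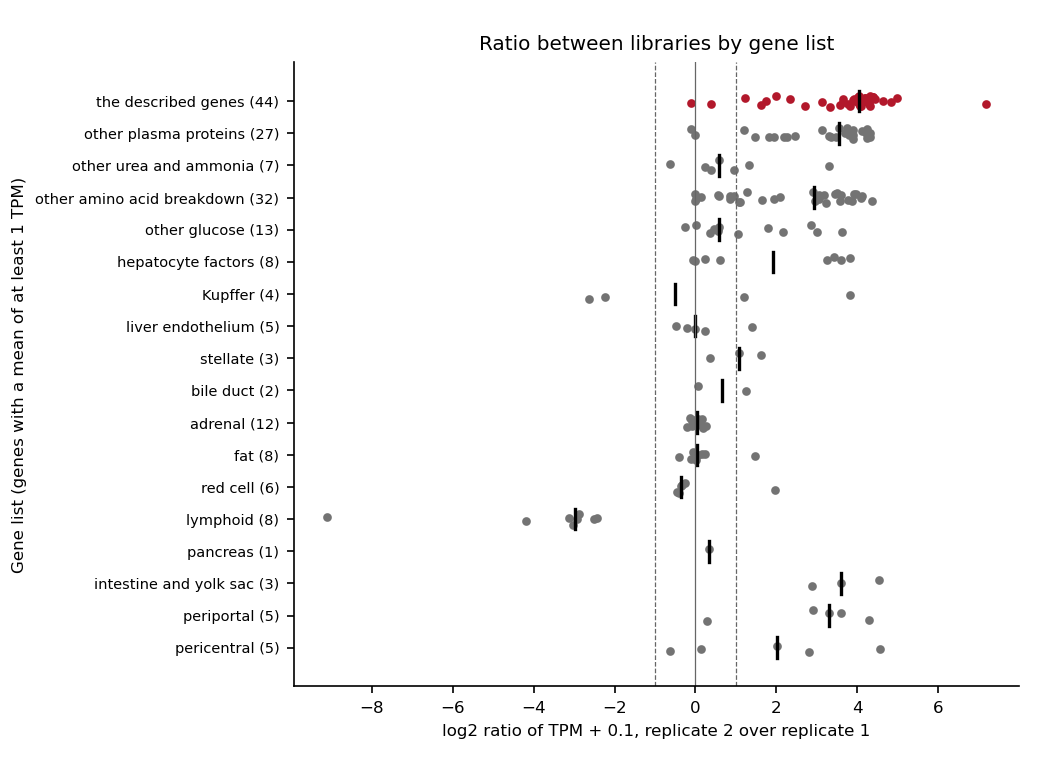
Log2 ratio of TPM + 0.1, replicate 2 over replicate 1, of each gene averaging at least 1 TPM, by list, with the number of such genes in brackets and a black bar at the median. The described genes (red) have a median of 4.04 and other plasma proteins one of 3.57, adrenal and fat genes lie around 0 with medians of 0.05 and 0.04, and all lymphoid genes lie below -1; dashed lines mark 2-fold.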

How the data were processed

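Total RNA-seq of 2 adrenal libraries of 1 group was used. The authors deposited expected counts, TPM, the posterior mean of TPM and its 95% credibility limits (a signal in TPM units) per gene and transcript, with the percent of a gene on each transcript, in columns named as RSEM names them, per the file headers. Deposited kallisto TPM per transcript, per the file headers, was summed to genes. The reference was mm10 with GENCODE M21, per the deposited file list; the aligner is not stated, and tool versions were not given in the sources used here. TPM is relative to all entries, spike-ins included, and reads of CAST alleles were set against the mm10 reference.

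The members and lists were chosen with earlier results of these data known. Members and list genes were matched by symbol, and 196 of 198 listed genes in 18 lists were found. The members were all described by name; of each list, up to 3 genes with the highest mean TPM and up to 2 with the largest log2 ratio could be named, with defining markers at 0 and genes the text marks as chosen after their values were seen. Some list genes are not reported by name here. The ratio was log2 of TPM + 0.1, replicate 2 over replicate 1, for genes averaging at least 1 TPM, and no test was made, since the group has 2 libraries. SD describes the spread between these libraries, which may be technical. Expected counts were 36260745 in replicate 2 and 32963248 in replicate 1, with spike-ins at 0.323% in replicate 2 and 0.311% in replicate 1. Alternatives were other pseudocounts, minimums, quantifications and scalings (TMM and RLE in edgeR 4.0.16 under R 4.3.3, on expected counts rounded to whole numbers, and spike-ins); the ratio step was tested on simulated data. Motifs were searched in RefSeq promoters on GRCm38.p6, in which 36 members were matched by symbol. A planned identity between serpin proteins was replaced by that of GENCODE M21 coding sequences without the stop codon, aligned with Biopython 1.88. Other steps ran in Python 3.11.15 (numpy 2.4.6, matplotlib 3.10.9, scipy 1.17.1, pandas 2.3.3).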

Additional observations from a re-analysis of the deposited data

How the results depend on the processing

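The count of genes over 2-fold higher in replicate 2 was 42 and ran from 41 to 44 over the other pseudocounts, minimums, quantifications and scalings tried. Their median log2 ratio of 4.04 was 3.63 with a pseudocount of 1 TPM, which lowers ratios of genes near that level, and 3.97 to 4.13 under the other settings. With at least 5 TPM required in each library, 24 genes were detected in both, against 38 with 1 TPM. The HNF1 motif count of 4 of the 36 genes was 16 with up to 1 mismatch and 12 with the core GTTAAT alone. Counted over single promoters and not genes, 13.1% of the whole table matched with up to 1 mismatch and 7.10% held the core. Over all nuclear protein-coding genes, 418 were over 2-fold higher in replicate 2 and 293 in replicate 1; these were 721 and 693 with no minimum, 189 and 40 with a minimum mean of 5 TPM, and 363 and 181 with a pseudocount of 1 TPM. The member share of nuclear protein-coding TPM ran from 0.446% to 3.50% when either library was left out, and leaving out a library leaves no ratio. Spike-in scaling put the median log2 ratio at -0.14 for all nuclear protein-coding genes averaging at least 1 TPM and at 3.97 for the members. With all genes but the spike-ins as the total, the mean share was 0.550% in place of 1.97%. Of the 32 alternatives, 4 moved a result: the pseudocount of 1 TPM for the median, the 5 TPM requirement, and the looser HNF1 motif settings. The median log2 ratio of the members stayed positive under every setting tried for it. The other results are counts and shares, which have no direction to change. No paired analysis was possible because there is 1 group. With 2 libraries, no spread between animals can be given, and ratios of genes with few counts in replicate 1 (8 for Lect2 and Mettl7b, 17 for Hgd) are set mostly by that library.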

Other observations

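Genes outside the described set shared its difference. Of the nuclear protein-coding genes averaging 5 TPM or more, 111 were over 8-fold higher in replicate 2 and 3 over 8-fold higher in replicate 1. Of the 111, 36 were described genes, 23 stood in the other lists and 52 in none. The most abundant of those 52, named after their values were seen, included coagulation genes. The fibrinogen chains Fga, Fgb and Fgg, which form the clot, were at 139.7, 65.3 and 117.5 TPM in replicate 2 against 6.53, 3.77 and 5.94 TPM in replicate 1. Plg, plasminogen, which dissolves it, was at 75.8 TPM in replicate 2 versus 4.49 TPM in replicate 1, and F2, prothrombin, at 62.7 TPM in replicate 2 against 3.73 TPM in replicate 1. Kng1, kininogen, and Agt, angiotensinogen, the precursors of vasoactive peptides, stood at 57.99 and 46.6 TPM in replicate 2 against 3.49 and 3.80 TPM in replicate 1. Enzymes of drug and lipid handling were in the group too: the carboxylesterase Ces1c was at 68.4 TPM in replicate 2 compared with 3.36 TPM in replicate 1, the sulfotransferase Sult2a1 at 50.2 TPM in replicate 2 against 2.06 TPM in replicate 1, and the cytochrome Cyp3a11 at 38.3 TPM in replicate 2 versus 2.10 TPM in replicate 1. Angiotensin II, which is cut from the product of Agt, is known to act on the adrenal cortex to raise aldosterone. Where the Agt RNA came from was not tested.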
